A study of Mus musculus with 7 samples.

Results

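Antigen presentation by MHC molecules (the H2 molecules of mice) was examined through 10 named genes, 5 of the class I pathway and 5 of the class II pathway. The rule took the rows of the deposited day-6 table that carry their symbols, and all 10 members were found among 15965 genes with a completed comparison. RNA with a poly-A tail had been sequenced from tissue labelled as sinoatrial node, the pacemaker region of the right atrium, of Sv129 mice at 3 weeks after birth. The control library came from mice with floxed alleles of Baf250a (genotype Baf250af/f), a chromatin remodelling subunit whose gene symbol is Arid1a. The other library came from mice that also carried Hcn4CreERT2, a tamoxifen-dependent Cre recombinase driven from Hcn4, a gene of pacemaker cells. The labels name these a 6-day sample and its 6-day control, and the series text counts the days from tamoxifen. Both groups thus share the floxed alleles, and the recombinase should act in Hcn4-expressing cells only. The labels state neither the number of mice pooled nor whether mice without Cre also received tamoxifen. There was 1 library per genotype, so no value below has a replicate error and no difference was tested. The other 5 of the 7 samples, a time series up to 48 h after tamoxifen, were not analysed here.

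Class I molecules sit on nearly all nucleated cells and show peptides from the cytosol to CD8 T cells. Each consists of a heavy chain (H2-K1 or H2-D1) and B2m, beta-2 microglobulin, and it receives peptides that the transporter pair Tap1 and Tap2 pumps into the endoplasmic reticulum. Class II molecules show peptides from endosomes to CD4 T cells, and are made mainly by dendritic cells, macrophages, B cells and the epithelium of the thymus. Their alpha and beta chains (H2-Aa with H2-Ab1, and H2-Eb1) assemble around the invariant chain Cd74, and the coactivator Ciita switches their genes on. In the heart, class II is known chiefly from resident macrophages and dendritic cells.

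Promoters of both classes carry a shared X and Y box module, and the stretches below are shown because they hold parts of that module in members of either class. They are read 5′ to 3′ on the gene's strand from RefSeq promoter windows of GRCm38.p6, a later build than the mm9 of the expression table. The windows run from 250 bases before to 50 after a start site, and 6 of the 10 members had one. Tap1, the member with a window that is not shown, held an X2 core and a Y box but not in the order and spacing of the module. Each stretch of 120 bases lies upstream of the start site, and capitals mark every motif match in it. The motifs, searched on both strands (N is any base), were the Y box ATTGG, an X2 core TGACG, an X1 core of GNAAC, 3 bases and TG, an interferon element of GAAA, 2 bases and GAAA, and an NF-kB site of GGGGA, 1 base and TCCCC. The X2 core and the NF-kB site were added after the members' promoters had been read.
H2-K1: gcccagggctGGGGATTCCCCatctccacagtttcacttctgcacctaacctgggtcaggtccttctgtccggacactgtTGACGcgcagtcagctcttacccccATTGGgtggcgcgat
H2-D1: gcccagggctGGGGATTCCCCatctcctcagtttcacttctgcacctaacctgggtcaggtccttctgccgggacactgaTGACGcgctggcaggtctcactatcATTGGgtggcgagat
B2m: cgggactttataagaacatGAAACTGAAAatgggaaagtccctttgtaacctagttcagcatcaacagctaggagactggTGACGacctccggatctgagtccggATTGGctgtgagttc
H2-Aa: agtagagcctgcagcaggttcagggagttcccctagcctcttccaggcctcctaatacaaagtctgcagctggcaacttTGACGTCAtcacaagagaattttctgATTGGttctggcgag
H2-Eb1: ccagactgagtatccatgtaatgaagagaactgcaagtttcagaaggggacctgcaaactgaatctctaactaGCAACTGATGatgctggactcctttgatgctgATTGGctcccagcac

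These stretches lie at chr17:34000349-34000468 (minus strand) for H2-K1, chr17:35262913-35263032 (plus) for H2-D1, chr2:122147529-122147648 (plus) for B2m, chr17:34287857-34287976 (minus) for H2-Aa and chr17:34305703-34305822 (plus) for H2-Eb1. H2-K1 has a further start site in the table, and the first listed is shown. In H2-K1, H2-D1 and B2m the X2 core was followed by a Y box after 20 bases, and in H2-Aa after 21 bases. The same order with 15 to 30 bases between, on either strand, was found in 175 of 27025 genes with a promoter window (0.648%). H2-Eb1 held no X2 core in its window, but an X1 core ahead of its Y box. The X2 core of H2-Aa lies in a palindrome and so matched on both strands, with the matches overlapping. Taken alone the short motifs are common, with a Y box in 41.1% of genes, an X2 core in 23.05%, an X1 core in 13.2% and an interferon element in 3.99%. B2m alone of the members with a window matched the interferon element as spelled here. Variant forms of that element were not searched, so its absence from the other promoters cannot be judged. The NF-kB site, known from enhancer A of class I genes, stood in 15 of the 27025 genes (0.0555%), with H2-K1, H2-D1 and H2-Q6 among these 15. A match here is a description of letters and not evidence of binding.

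Expression is given as FPKM, a level scaled to transcript length and library size, which summed to 497407 over the control library and 485189 over the Cre library. The read depth behind it is unknown, so no counting interval can be given. The log2 ratio compares FPKM + 1 with Cre to FPKM + 1 in the control, and a gene was counted as lower or higher at a difference of 2-fold or more on that scale. The floxed gene itself, Arid1a, had 34.9 FPKM without Cre and 12.3 FPKM with Cre, a value that also covers exons outside the floxed part. Pacemaker genes were weak in both libraries, with Hcn4 at 0.605 and 0.719 FPKM, while the 10 cardiomyocyte markers with a value summed to 14997 and 21915 FPKM. All 10 T cell markers and 9 of 10 immature thymocyte markers were lower in the Cre library. Xist, of the inactive X chromosome, had 0.379 and 93.2 FPKM, and the Y-linked Eif2s3y had 85.8 and 0.118 FPKM, so the libraries also differ in sex. Genotype, sex and dissection cannot be told apart in this pair.

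The class II genes were lower in the Cre library by a similar factor, and the class I genes were split between heavy chains that differed little and transporters that were lower, with B2m in between. Of 13411 genes whose mean reached 1 FPKM, 10.4% were at least 2-fold lower and 6.08% at least 2-fold higher. All 10 members passed that minimum. Of the class II members 5 of 5 were lower, of the class I members 2 of 5, and none of either class was higher. The median log2 ratio was -2.05 over the class II members (from -2.40 to -1.10) and -0.69 over the class I members (from -1.85 to -0.16), against -0.07 over all genes measured. The difference of the medians, class II minus class I, was -1.36. It lay between -1.40 and -1.04 in the alternative settings run for it. Centring on a gene list subtracts the same value from both classes, so it could not move this difference. Rescaling a library could move it only through the pseudocount. After scaling to a common upper quartile, 6 of the 10 members were lower, since Ciita moved to -0.99, and calls over all genes turned from 36.8% higher to 54.6% higher. In bulk tissue, fewer cells of a type and less RNA per cell cannot be told apart.

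**Figure D1:**
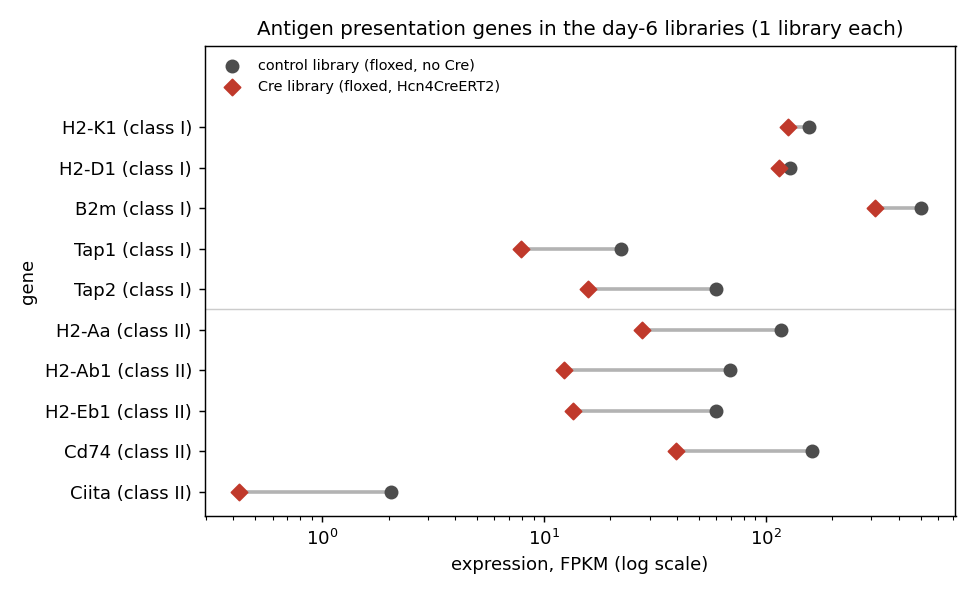
Expression of the 10 members in FPKM on a log axis, with a grey circle for the control library, a red diamond for the Cre library and a line joining the values of a gene. H2-K1 and H2-D1 had nearly the same level in both libraries, whereas the class II genes, Tap1 and Tap2 were spread apart, as for H2-Ab1 at 69.3 and 12.3 FPKM.

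The class II chains were abundant in the control library. H2-Aa, the alpha chain of the A molecule (NM_010378, mm9 chromosome 17, 34419695 to 34424716), had 118 FPKM without Cre and 27.7 FPKM with Cre. Its partner beta chain H2-Ab1 (NM_207105, 34400171 to 34406363) had 69.3 and 12.3 FPKM. The beta chain of the E molecule, H2-Eb1 (NM_010382, 34442811 to 34453619), had 60.1 and 13.5 FPKM. The control level was thus 4.26 times the Cre level for H2-Aa, 5.64 times for H2-Ab1 and 4.44 times for H2-Eb1, and the log2 ratios were -2.05, -2.40 and -2.07. For H2-Ab1, 2.90% of the genes measured had a ratio as low or lower. H2-Ea, the alpha chain gene that pairs with H2-Eb1, was not found in the expression table. Whether an E molecule was made in these mice therefore cannot be judged from H2-Eb1.

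Cd74, the invariant chain that fills the class II groove until a peptide is loaded, was the most abundant class II member in both libraries (NM_001042605, on chromosome 18). It had 162 FPKM without Cre and 39.5 FPKM with Cre, a log2 ratio of -2.01 and a 4.10-fold difference. Cd74 stood at 0.655 times the summed H2-Aa, H2-Ab1 and H2-Eb1 level in the control and 0.739 times in the Cre library, a proportion that differed 1.13-fold. H2-Aa had 1.70 times the level of H2-Ab1 in the control and 2.25 times in the Cre library. Ciita, the switch of these genes (NM_007575, chromosome 16, 10488371 to 10527657), was the weakest member, at 2.05 and 0.423 FPKM. Its unshifted levels differ 4.84-fold, close to the range of the chains, but its log2 ratio of FPKM + 1 is -1.10 because the added 1 weighs heavily on a weak gene. The same ratio is -2.04 with 0.1 added and -0.38 with 5 added.

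In class I, the heavy chains stayed near equal expression in the values as deposited. H2-K1 (NM_001001892, chromosome 17, 34132956 to 34137278) had 158 FPKM without Cre and 126 FPKM with Cre, a log2 ratio of -0.32. H2-D1 (NM_010380, 35400038 to 35462354) had 129 FPKM without Cre and 115 FPKM with Cre, and its log2 ratio of -0.16 became 0.06 after upper-quartile scaling of both libraries. A ratio as low as that of H2-D1 or lower was found in 44.4% of the genes measured. B2m, the light chain (NM_009735, chromosome 2, 121945843 to 122011925), had 504 and 312 FPKM. Its log2 ratio of -0.69 did not reach 2-fold, and it came to -1.21 when ratios were centred on fibroblast and endothelial genes. With that centring H2-K1 came to -0.84 and H2-D1 to -0.68, so how near the heavy chains lie to 0 depends on the scaling. B2m stood at 1.76 times the summed heavy chains in the control and 1.30 times in the Cre library, a proportion that scaling does not change.

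The peptide transporter was lower in the Cre library in both of its subunits. Tap1 (NM_001161730, chromosome 17, 34324500 to 34334170) had 22.3 FPKM without Cre and 7.87 FPKM with Cre, a log2 ratio of -1.39. Tap2 (NM_011530, 34341423 to 34353266) had 59.9 and 15.9 FPKM, a log2 ratio of -1.85. Tap1 and Tap2 together came to 0.287 times the summed H2-K1 and H2-D1 level in the control and 0.0986 times in the Cre library. In their ratios the transporter genes thus lay between the class I chains and the class II chains.

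The order of levels changed with these differences. In the control library Cd74 stood second to B2m, above H2-K1, H2-D1 and H2-Aa, followed by H2-Ab1, H2-Eb1, Tap2, Tap1 and Ciita. In the Cre library H2-K1 and H2-D1 followed B2m, and every class II member had a lower level than both of them. Without replicates, whether neighbours in either order differ cannot be judged. The summed class II level was 412 FPKM without Cre and 93.5 FPKM with Cre, a 4.40-fold difference, and the summed class I level was 872 and 577 FPKM, a 1.51-fold difference. Class II amounted to 0.472 times class I in the control library and 0.162 times in the Cre library. Among all 15965 genes, Cd74 had rank 465 by level in the control and rank 1897 in the Cre library, whereas H2-D1 had ranks 593 and 629.

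None of the 10 members was called in the authors' deposited table, which called 0.551% of the genes as lower and 0.0125% as higher in the Cre library. The smallest p-value of a member there was 0.00915 for H2-Ab1, with a q-value of 0.310. For H2-Aa, Cd74 and H2-Eb1 the authors' deposited table gave p-values of 0.0138, 0.0148 and 0.0170, and for H2-D1 0.841. Those tests compare a pair of libraries and not the genotypes.

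Reads of close relatives limit the class I values more than the class II values. Of the 50-base windows in annotated GRCm38 transcripts of H2-D1, 12.8% recurred in another gene, most often H2-Q1, and of H2-K1 9.63%, most often H2-Q10. In the expression table H2-D1 also shares its locus with H2-Q1, at 10.1 and 0.442 FPKM. For B2m, H2-Ab1, H2-Eb1, Cd74 and Ciita no window recurred elsewhere, and for H2-Aa, Tap1 and Tap2 fewer than 1% did. The B2m locus of the table overlaps that of Patl2, which was at 0.186 and 0.00613 FPKM. The sources used here do not give how reads that match several genes were counted.

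The wider pathway was lower in parts. Lists of 8 roles in antigen presentation held 65 further measured genes, of which 23 (35.4%) were at least 2-fold lower in the Cre library and 0 were higher, against 10.4% and 6.08% of all genes measured. The split by role was uneven, as the next paragraphs describe.

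**Figure D2:**
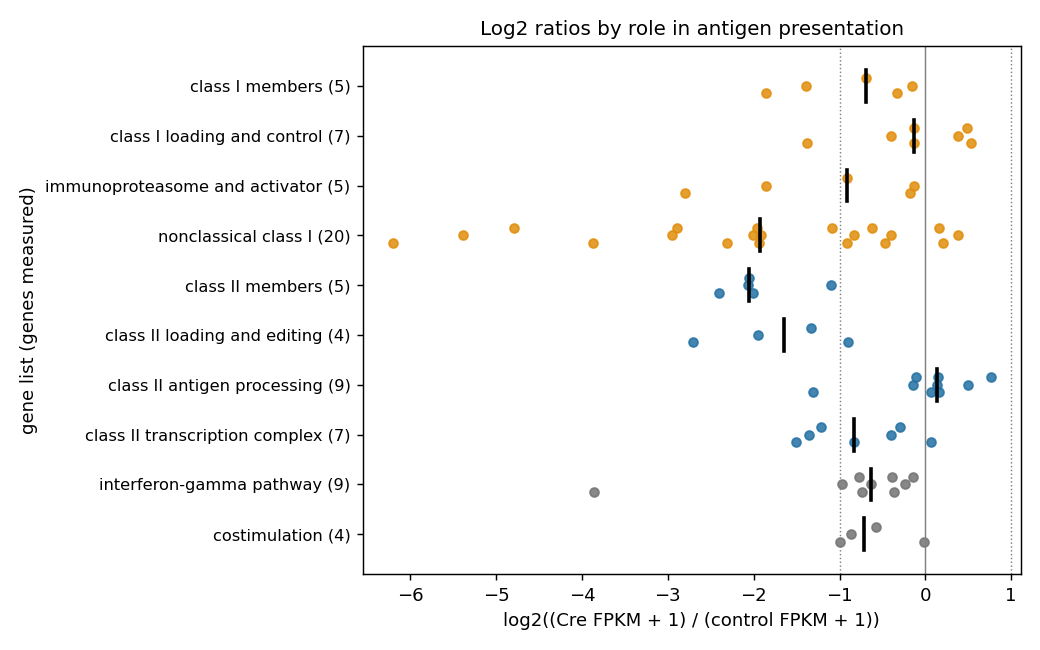
Log2 ratio of FPKM + 1, Cre over control, for every measured gene of 10 lists of the pathway, with a black bar at the median of a list and dotted lines at a 2-fold difference. Orange marks class I lists, blue class II lists and grey the remaining lists, and nonclassical class I genes reach the lowest values, down to -6.20.

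Class II loading and editing genes followed the class II chains, with 3 of 4 measured members lower and a median of -1.64. H2-Oa, a chain of the H2-O molecule that holds back peptide exchange, had 7.85 FPKM without Cre and 0.355 FPKM with Cre. H2-DMb2 and H2-DMa, chains of the H2-M molecule that exchanges the invariant chain fragment for peptide, had 6.47 and 13.3 FPKM without Cre and 0.930 and 4.68 FPKM with Cre. H2-DMb1 had 6.37 and 2.95 FPKM, short of 2-fold at -0.90. H2-Ob and H2-Eb2 stayed under the minimum mean, at 1.41 and 1.51 FPKM without Cre and 0.475 and 0.0309 FPKM with Cre.

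The endosomal proteases and other processing genes had a median of 0.13, and 1 of 9 (11.1%) was lower, near the 10.4% over all genes measured. Ctss, the protease that trims the invariant chain in macrophages, dendritic cells and B cells, had 41.3 and 37.3 FPKM. Ifi30, a reductase that opens disulphide bonds of antigens, had 26.6 and 29.6 FPKM, and Lgmn had 50.6 and 72.0 FPKM. The lower one was Ctsl, which trims the invariant chain in thymic cortical epithelium and is made in many tissues, at 676 FPKM without Cre and 273 FPKM with Cre.

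Of the factors that bind the X and Y boxes, 3 of 7 were lower, with a median of -0.84. These were Creb1, which can bind the X2 box, at 29.5 and 9.72 FPKM, and Nfya and Nfyb, subunits of the Y box factor NF-Y, at 15.7 and 29.6 FPKM without Cre and 5.56 and 12.2 FPKM with Cre. The third NF-Y subunit gene, Nfyc, had 43.1 and 45.2 FPKM. Rfx5, of the factor complex on the X1 box, had 9.46 and 4.86 FPKM, a log2 ratio of -0.84. Nlrc5, the class I counterpart of Ciita, had 1.44 and 1.22 FPKM, so that Ciita stood at 1.43 times the level of Nlrc5 in the control and 0.347 times in the Cre library. The promoters shown above that share the spacing of X2 core and Y box belong to genes with ratios from -2.05 for H2-Aa to -0.16 for H2-D1. Among 61 pathway and member genes with a promoter window, 7 held that pair of motifs, against 0.648% of all genes with a window. These include H2-K1, H2-D1, B2m and H2-Aa, whose promoters had been read before the X2 core was added, so their matches were known in advance. The others were H2-M3, H2-Q7 and Jak1.

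Class I assembly genes had a median of -0.13, with 1 of 7 (14.3%) lower, against 10.4% of all genes measured. Calr, Canx and Pdia3, general folding helpers of the endoplasmic reticulum, had 185, 102 and 146 FPKM without Cre and 268, 142 and 191 FPKM with Cre. Tapbp, which ties the empty class I molecule to the transporter, had 48.0 and 43.8 FPKM. The lower one was its relative Tapbpl, a peptide editor, at 17.5 and 6.10 FPKM. In the immunoproteasome, which cuts peptides for class I, 2 of 5 genes were lower. Psmb8 had 90.5 and 12.1 FPKM and Psmb9 35.2 and 8.97 FPKM, whereas the activator genes Psme1 and Psme2 had 108 and 84.9 FPKM without Cre and 98.8 and 74.9 FPKM with Cre.

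Nonclassical class I genes, whose products have narrower or specialised ligands, were lower in 12 of 20 cases, with a median of -1.93. H2-T10 had 211 FPKM without Cre and 1.89 FPKM with Cre, and it is the 1 gene of these pathway lists that the authors' deposited table called, with a q-value of 0.0149. H2-T3, the thymus leukemia antigen of immature thymocytes and gut epithelium, had 45.9 and 0.123 FPKM, H2-Q2 had 47.8 and 0.760 FPKM, and H2-T22 had 118 and 7.13 FPKM. H2-Q1 and H2-Bl had 10.1 and 7.93 FPKM without Cre and 0.442 and 0.205 FPKM with Cre. The highest-expressed gene that did not reach 2-fold was Fcgrt, the neonatal Fc receptor, at 93.6 and 108 FPKM. Values of H2-T10 and H2-T22 are uncertain as single genes, since 31.7% of the 50-base windows of H2-T10 recur in H2-T22.

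The interferon-gamma pathway, the main inducer of Ciita and of class I genes, had 1 of 9 genes lower and a median of -0.63. That share of 11.1% was near the 10.4% over all genes measured. All 9 had a negative log2 ratio, as had 7247 of the 13411 genes measured. The gene past 2-fold was Socs1, a feedback inhibitor that is also abundant in thymocytes, at 34.2 and 1.42 FPKM. Irf1 had 31.9 and 24.2 FPKM, and Ifngr1, the highest of the list, had 119 and 71.1 FPKM. Of 4 measured costimulation genes 0 were lower, with Cd274 at 12.5 and 5.74 FPKM just inside 2-fold at -0.999. The coreceptors that read the products of these genes were lower by far more than the genes themselves. Cd8a and Cd8b1, which pair with class I, had 314 and 417 FPKM without Cre and 0.521 and 0.864 FPKM with Cre, and Cd4, which pairs with class II, had 144 and 0.829 FPKM.

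Of the members, 7 lie in the MHC on chromosome 17, between the start of H2-K1 and the end of H2-D1 (mm9, 34132956 to 35462354). The table held 71 other genes in that interval, 58 of them measured, of which 14 (24.1%) were lower and 2 higher. Over all genes measured, 10.4% were lower and 6.08% higher. In the stretch from H2-Oa to H2-Eb2, singled out after the values had been seen, 5 of 7 measured non-members were lower, with a median of -1.86. In the rest of the interval 9 of 51 (17.6%) were lower, with a median of -0.43. The lower genes of the stretch were H2-Oa, H2-DMa, H2-DMb2, Psmb8 and Psmb9. All of them, and H2-Q1 in the rest, were already counted among the lower pathway genes above. The interval count and the pathway count are therefore not separate. The stretch holds Psmb9 and Tap1, which are separated by 225 bases in the table and are known to share a promoter region, with log2 ratios of -1.86 and -1.39. The lowest ratios at a mean of 5 FPKM or more were those of Ltb, a lymphotoxin chain of lymphocytes, at 20.8 and 0.504 FPKM, Prrt1 at 16.1 and 0.486 FPKM and Gpsm3 at 34.9 and 3.63 FPKM. The highest were those of Ager, a receptor abundant in alveolar type I cells of the lung, at 3.26 and 11.8 FPKM, the complement gene C4b at 13.4 and 24.3 FPKM and Tnxb at 12.4 and 21.5 FPKM.

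**Figure D3:**
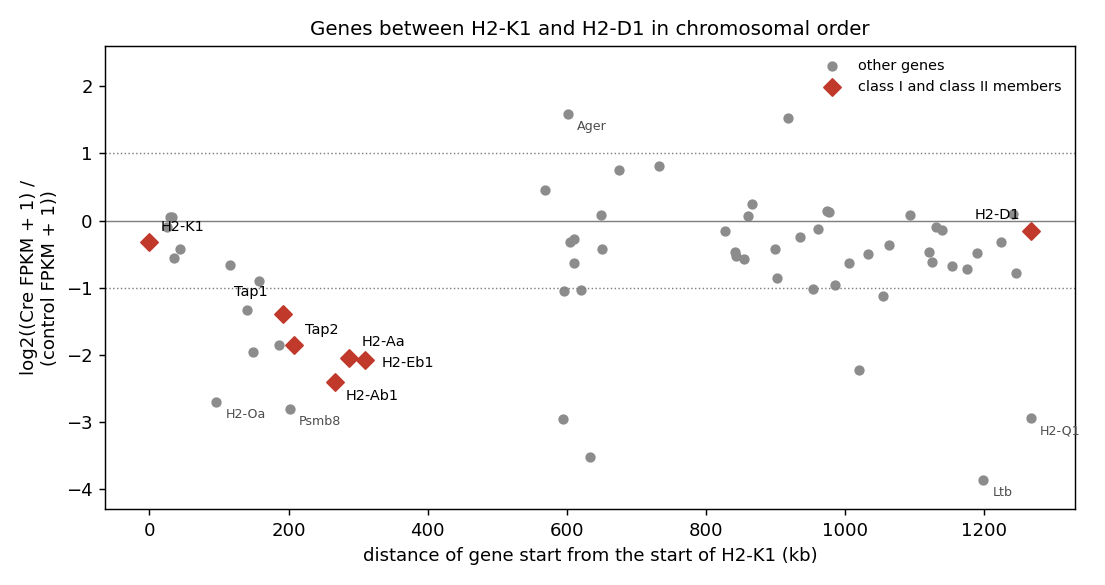
Log2 ratio of FPKM + 1, Cre over control, of measured genes against the distance of their start from that of H2-K1 in kb, with the members as red diamonds and dotted lines at a 2-fold difference. H2-K1 and H2-D1 at the ends lie near 0, while H2-Ab1, H2-Aa, H2-Eb1, Tap1 and Tap2 lie below -1 among other genes of the class II region.

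Markers of cells that carry class II were set beside these values. The 11 macrophage markers summed to 663 FPKM without Cre and 771 FPKM with Cre. The share of them that was lower, 1 of 11 (9.09%), was near the 10.4% over all genes measured. The lower one was Cd68, at 16.8 and 7.87 FPKM. The list had a median log2 ratio of 0.28. That is the value of Fcgr1, a weak gene at 0.887 and 1.30 FPKM that passed the minimum only through its Cre level. Lyz2 had 349 and 495 FPKM, a difference larger than that of the whole sum. C1qb and C1qa had 84.3 and 81.2 FPKM without Cre and 69.8 and 63.1 FPKM with Cre. They, C1qc and Cd68 were the 4 of 11 macrophage markers with a negative log2 ratio. Cd74 stood at 0.669 times the summed C1qa, C1qb and C1qc level in the control and 0.201 times in the Cre library. The 10 dendritic cell markers summed to 15.5 and 10.97 FPKM, with 4 above the minimum mean and a median log2 ratio of 0.20 over these. Of these 1 was lower, Ccr7, which mature thymocytes also express, at 3.82 and 0.143 FPKM, and it makes up most of the difference in the sum. The other measured dendritic cell markers, Clec10a, Zbtb46 and Clec9a, had log2 ratios of 0.08, 0.32 and 0.49. Clec9a, at 0.906 and 1.67 FPKM, passed the minimum only through its Cre level. The markers under the minimum, Flt3, Siglech, Xcr1, Itgax, Cd209a and Batf3, all had negative log2 ratios, from -0.62 to -0.32. The median over the measured markers leaves these weak genes out. The 9 B cell markers in the table summed to 13.5 and 9.84 FPKM, with 3 above the minimum and a median log2 ratio of 0.51. Cd79b was lower, at 8.34 and 3.34 FPKM, a difference larger than that of the whole sum, whereas Ms4a1 and Cd79a both had a log2 ratio of 0.51. Ms4a1, at 0.950 and 1.78 FPKM, also passed the minimum only through its Cre level. No marker of these lists was listed at 0 in either library.

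Thymic epithelium markers differed in the same direction as the class II genes, being lower in 7 of 9 measured cases, and their sum was 543 FPKM without Cre and 42.1 FPKM with Cre. Prss16, a protease of cortical thymic epithelium that supplies class II peptides, had 198 and 0.381 FPKM. Ccl25 had 161 and 2.29 FPKM and Tbata 134 and 2.23 FPKM, and both were called in the authors' deposited table. Foxn1, the master regulator of that epithelium, had 2.34 and 0.00596 FPKM. Cldn3, which airway epithelium also makes, was the 1 higher marker, at 7.92 and 30.7 FPKM. T cell markers summed to 1159 and 6.54 FPKM, and immature thymocyte markers, a list that shares Cd8b1 and Cd1d1 with lists above, to 1655 and 27.0 FPKM. Markers of white blood cells in general were lower in 9 of 10 cases, with Coro1a at 326 and 8.28 FPKM, and summed to 979.7 and 88.1 FPKM. Alveolar type II cells of the lung, which also carry class II, gave the opposite picture, with 6 of 9 markers higher and sums of 33.8 and 220.1 FPKM.

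**Figure D4:**
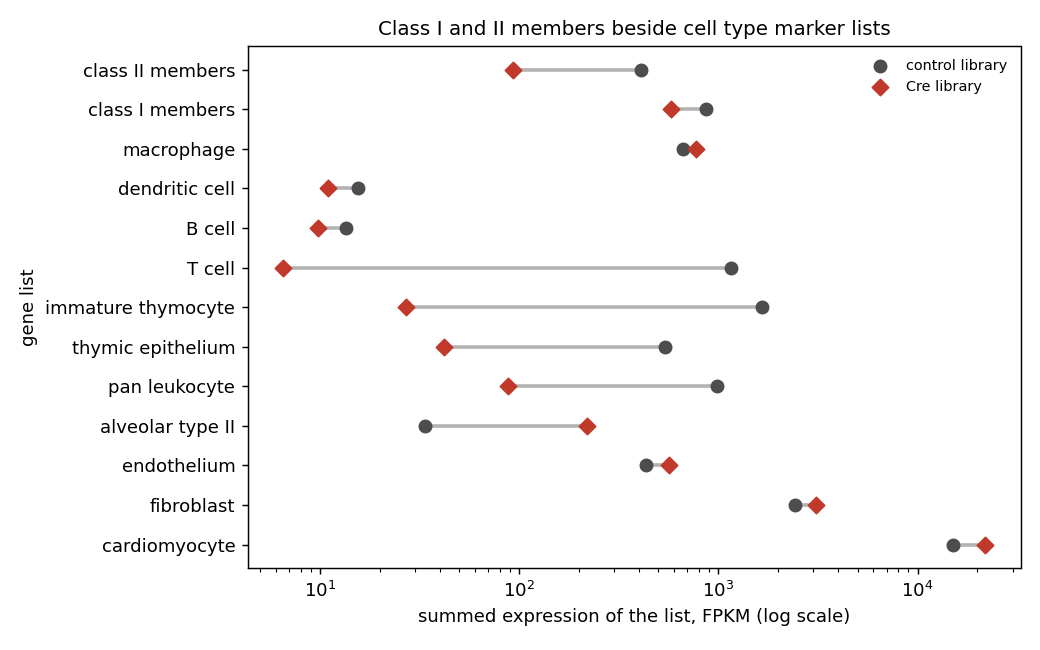
Summed FPKM of the class I and class II members and of cell type marker lists on a log axis, with grey circles for the control library and red diamonds for the Cre library. The class II sum, at 412 and 93.5 FPKM, differed less between the libraries than lists that were far lower with Cre, such as thymic epithelium at 543 and 42.1 FPKM. The macrophage sum, at 663 and 771 FPKM, was higher with Cre, a difference smaller than that of its marker Lyz2 alone.

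The part that these cell type differences have in the class I and class II values was not tested. The endothelial markers, from cells known for high class I, summed to 432 and 565 FPKM, with 0 of 10 lower or higher at 2-fold.

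Other genes with levels most like those of a class were found by the distance of log2(FPKM + 1) in both libraries to the median of its members. With 2 values per gene this is a coarse measure. For class II the nearest were Mcm7, a DNA replication helicase subunit, at 76.0 and 15.1 FPKM, then Dgka, Clk3, Fam107b and the leukocyte gene Laptm5, whose log2 ratios ran from -2.59 to -2.03. For class I both medians are the values of H2-D1, so the nearest genes were near H2-D1 rather than near the class as a whole. They included Grcc10, at 126 and 114 FPKM, Drap1, 1500032L24Rik and the proteasome gene Psma3, with log2 ratios from -0.24 to -0.08.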

How the data were processed

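The submitters' processing notes name TopHat, Bowtie and Cufflinks and the build mm9. None of the tool versions, the annotation, strand use, read length and the scaling applied across libraries is given in the sources used here. Each row of the deposited table is a gene, with a level for either library that was taken as FPKM because the columns follow a Cufflinks comparison, per the file headers. In FPKM, abundant transcripts of one tissue lower all other values of that library. The authors' deposited columns also hold a test score, a p-value, a q-value and a log2 fold change, which is the log2 of Cre over control FPKM in every row kept, within 1.38e-05. Of 15967 rows, 2 without a completed comparison were left out, and 21 symbols turned into dates were restored from RefSeq accessions.

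With 1 library per group no test was run. Log2 ratios used a pseudocount of 1, and counts of calls used genes whose mean reached 1 FPKM, without 8 small-RNA genes. The members, gene lists and motifs were chosen with earlier results of these data known. The genes named were all members, up to 6 genes past 2-fold and the highest-expressed gene per pathway list, up to 3 of the highest per cell type list, the extremes of the H2-K1 to H2-D1 interval, the nearest genes to each class, and genes on which a limit turns. Further genes, such as Hcn4, Xist, Foxn1, Nlrc5, Rfx5, Nfyc and those of the cell type lists past 2-fold, were named after their values were seen. Alternatives were other pseudocounts and minimums, an upper-quartile scaling, TPM, centring on fibroblast and endothelial or on macrophage genes, means for medians, and sums without Cd74 and B2m. Shared windows were counted in GENCODE M21 transcripts. Python 3.11.15 with pandas 2.3.3 was used.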

Additional observations from a re-analysis of the deposited data

How the results depend on the processing

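With no replicates, a ratio was taken to keep its standing when it kept its sign and its side of 2-fold and moved by at most 1.5 times. The class II median stayed past 2-fold in all settings run, between -2.57 and -1.83, and the class II to class I ratio of sums, a log2 change of -1.54, came to -1.73 without Cd74 and B2m. Centring on fibroblast and endothelial genes took the class I median to -1.21, as for B2m, the lower genes of the interval to 29 and the lower pathway genes to 36. A pseudocount of 5 gave 9 lower and 1 higher interval genes, and a minimum of 5 FPKM gave 1 higher. H2-D1 turned to 0.064 and Ciita to -0.99 with the same upper quartile, which moved the median of all genes from -0.07 to 0.13. Ciita was at -0.38 with a pseudocount of 5. Over all genes, 1397 were lower and 815 higher (36.8% of calls higher), against 3581 and 248 (6.48%) with that centring, 2277 and 421 (15.6%) centred on macrophage genes, 805 and 238 (22.8%) with a pseudocount of 5, and 1086 and 1304 (54.6%) with the same upper quartile. No paired analysis was possible because each group has 1 library. Depth is unknown, so the weakest values, such as Ciita, have no known counting error.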
